A study of Astyanax mexicanus with 6 samples.

Results

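The Hox cluster genes were followed in isolated eyes of the Mexican tetra, Astyanax mexicanus, a fish with an eyed surface morph and a cave morph whose eyes degenerate. A gene was counted as a member when its name in the deposited gene table began with hoxa, hoxb, hoxc or hoxd followed by a number, with capitals ignored. Of 25271 genes, 45 met this rule. They lay on 7 scaffolds, which are named here by the letter most of their genes carry: hoxaa with 8 genes, hoxab with 5, hoxba with 9, hoxbb with 2, and hoxca, hoxcb and hoxda with 7 each.

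Whole eyes of wild-type cave fish and wild-type surface fish were dissected at about 54 hours post-fertilization. RNA and DNA were isolated with one kit. Poly(A) RNA was sequenced from 2 cave-labelled and 2 surface-labelled libraries, and whole-genome bisulfite sequencing (WGBS), which reads methylated cytosines as C and unmethylated ones as T, from 1 library of each morph. The labels do not say how many animals entered a library or whether the RNA replicates came from separate groups of embryos, so a p-value here is set against library-to-library spread that could be purely technical. Total RNA counts were 132739496 and 117742250 in the cave-labelled libraries, against 146907747 and 154476181 in the surface-labelled ones. All 14 eye markers found in the table had at least 6 counts in every library, and they summed to 2060 and 3432 CPM (counts per 1000000) in the cave-labelled libraries, against 971 and 748 CPM in the surface-labelled ones. Of these 14 markers 13 were highest in the second cave-labelled library. By edgeR 3 were called higher in the cave-labelled libraries, where 2.77% of all genes tested were, and 0 lower, where 0.407% were. At an unadjusted p under 0.05 edgeR placed 9, where 18.3% of all genes were. DESeq2 called 8, and of 24584 genes it called 1593 higher and 756 lower. The 3 were rpe65a (log2 fold change 3.001, edgeR adjusted p = 0.00889), rlbp1a (3.04, adjusted p = 0.00944) and rlbp1b (2.46, adjusted p = 0.0113), genes of the visual cycle. Without either surface-labelled library their log2 fold changes ran from 2.26 to 3.23, in fits that leave 1 surface-labelled library and cannot decide a call. Counts of rho, the rod photoreceptor pigment gene, were 17664 and 26989 in the cave-labelled libraries, against 0 and 7 in the surface-labelled ones. An exchange of labels cannot be told apart from a difference between the morphs here, so the RNA libraries are called by their labels throughout.

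Hox genes encode homeodomain transcription factors that give cells their position along the body axis. They stand in clusters, and the number in a gene's name is its paralog group. Low groups lie at the end of a cluster that is used in the anterior hindbrain and the neural crest of the pharyngeal arches, and high groups at the end used in the trunk, the tail and the distal fin. The eye and the forebrain lie in front of the most anterior Hox domain. The a and b copies of a cluster in bony fish stem from an ancestral genome duplication. Fish genomes are methylated across most gene bodies, whereas promoters with many CpG sites and the loci of developmental regulators, many of them bound by Polycomb repressors, are commonly free of methylation.

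Most Hox genes were nearly unmethylated upstream and in the body, in both eye libraries. A methylation level here is the percentage of cytosine calls in a region that were methylated, for the gene body or for the region upstream of it. Stretches of a cluster outside these regions have no values here. The median Hox gene body was at 2.06% in cave eyes and 1.76% in surface eyes, while the median of all gene bodies with at least 20 calls in each library was 83.4% in cave and 82.1% in surface. Hox upstream regions had medians of 2.26% in cave and 2.24% in surface, against 72.7% in cave and 70.5% in surface over all upstream regions. Of the 45 Hox upstream regions, 44 were below 10% in both libraries, where 16.5% of all 23680 upstream regions were. Of the 45 Hox gene bodies, 43 were below 10% in both, where 2.07% of all 25016 gene bodies were. Both regions were that low in 43 Hox genes, beside 1.43% of the 23441 genes with both regions measured, so Hox genes made up 43 of 335 such genes.

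**Figure D1:**
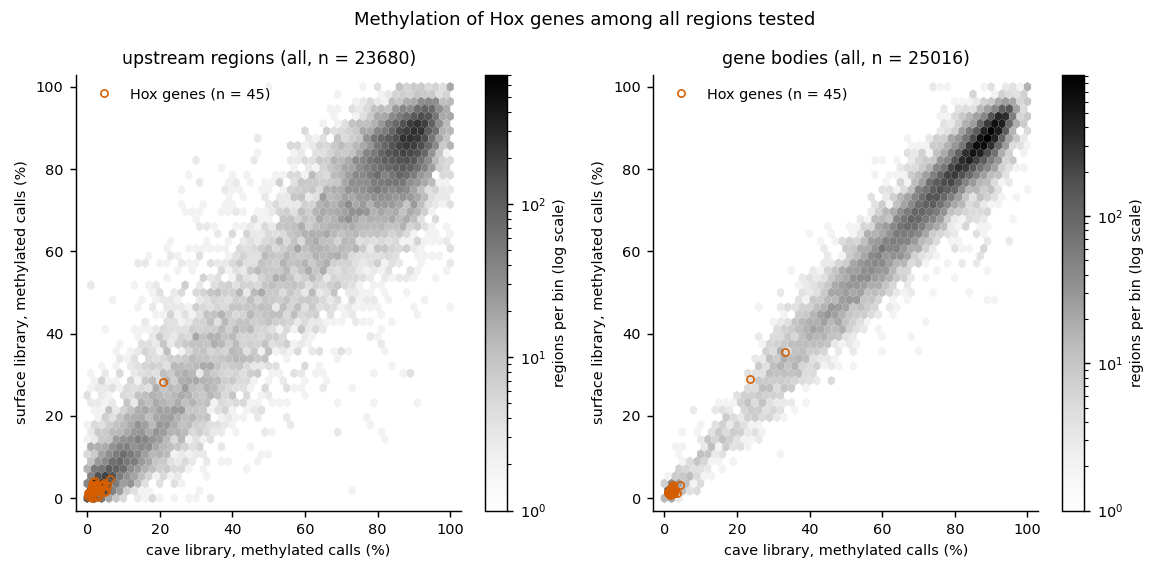
Methylation level of each region in the cave WGBS library (horizontal axis, %) against the surface WGBS library (vertical axis, %), with upstream regions on the left and gene bodies on the right. Grey hexagons count all regions on a log scale and orange circles are the 45 Hox genes, of which 44 upstream regions and 43 bodies lie below 10% on both axes.

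These levels rested on many calls. Hox upstream regions held 306 to 4500 calls in cave and 193 to 4432 in surface, and Hox gene bodies 2070 to 22890 in cave and 1935 to 21851 in surface. Calls were denser in Hox genes than elsewhere, with a median of 2899 calls per kb of gene body in cave and 2942 in surface, against 781 in cave and 758 in surface over all gene bodies. Hox genes were also short, with a median length of 2169 bp against 10196 bp for all genes. Under 5000 bp there were 42 Hox genes, and of all 7475 gene bodies of that length 6.33% were below 10% in both libraries. Among genes with a mean under 1 CPM, 7.63% of 6118 upstream regions were below 10% in both libraries, and 40 of the 41 Hox genes in that class were. For gene bodies in that class the share was 3.20% of 6442, and again 40 of 41 Hox genes. Whether length, call density or RNA level bears on the Hox levels was not tested.

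Levels below 10% in both libraries were found at both regions of every Hox gene except hoxa1a, at one end of hoxaa, and hoxb3a, inside hoxba. The clusters spanned 4.09 kb (hoxbb) to 102 kb (hoxba). Median Hox body levels by cluster ran from 1.68% (hoxab) to 2.47% (hoxca) in cave and from 1.51% (hoxab) to 1.87% (hoxba) in surface. Upstream medians ran from 1.30% (hoxbb) to 3.802% (hoxaa) in cave and from 0.661% (hoxcb) to 2.84% (hoxba) in surface. The clusters also held 10 genes without a Hox name or any other symbol. Most were very short and had 0 counts in every RNA library, such as ENSAMXG00000026646 at 435289 to 435361 in hoxab. Only ENSAMXG00000005233 (147736 to 152110, hoxaa) and ENSAMXG00000009372 (66716 to 78446, hoxca) were longer. These may be Hox genes that the name rule missed, and their RNA counts enter no Hox sum here. ENSAMXG00000005233 had 408 and 76 counts in the cave-labelled libraries, against 144 and 522 in the surface-labelled ones. For ENSAMXG00000009372 the counts were 14 and 0, against 0 and 2. All 10 unnamed genes had upstream regions below 10% in both libraries, and so did 8 of their 9 measured bodies. The exception, a gene of the hoxca cluster between hoxc12a and hoxc9a, had 0% of 256 body calls methylated in cave, which allows up to 1.17%, and 24.5% of 53 calls in surface.

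Outside the clusters most gene bodies were above that level. Of 40 measured gene bodies within 150 kb on either side, 6 were below 10% in both libraries, and the flanking bodies had a median of 64.0% in cave and 60.8% in surface. Flanking upstream regions were lower, with medians of 20.7% in cave and 15.5% in surface, against 72.7% and 70.5% over all upstream regions. Of 41 flanking upstream regions, 15 were below 10% in both libraries, where 16.5% of all were. At the hoxab cluster, skap2 lay 12.1 kb before the first Hox gene with a body level of 74.0% in cave and 71.3% in surface. On the other side of hoxab, hibadhb lay 12.2 kb away at 69.0% in cave and 61.3% in surface. The nearest methylated body on either side of hoxcb belonged to smug1, 28.7 kb away at 78.6% in cave and 75.1% in surface, and to calcoco1b, 39.5 kb away at 86.0% in cave and 83.1% in surface. At hoxaa the nearest methylated body lay 62.7 kb before the cluster, an unnamed gene at 84.3% in cave and 83.5% in surface. At hoxbb ttll6 lay 34.1 kb before the cluster, at 65.4% in cave and 57.9% in surface, and skap1 17.8 kb after it, at 76.1% in cave and 60.9% in surface, with 3 low genes nearer. At hoxca an unnamed gene lay 16.6 kb after the cluster, at 91.4% in cave and 85.0% in surface. The evx genes, homeobox genes that stand beside the high-numbered end of Hox clusters, shared the low state. The body of evx1 beside hoxaa was at 1.103% in cave and 1.52% in surface, and that of evx2 beside hoxda at 2.72% in cave and 3.60% in surface. The body of eve1, 10.1 kb from hoxb13a, was at 16.5% in cave and 26.3% in surface.

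**Figure D2:**
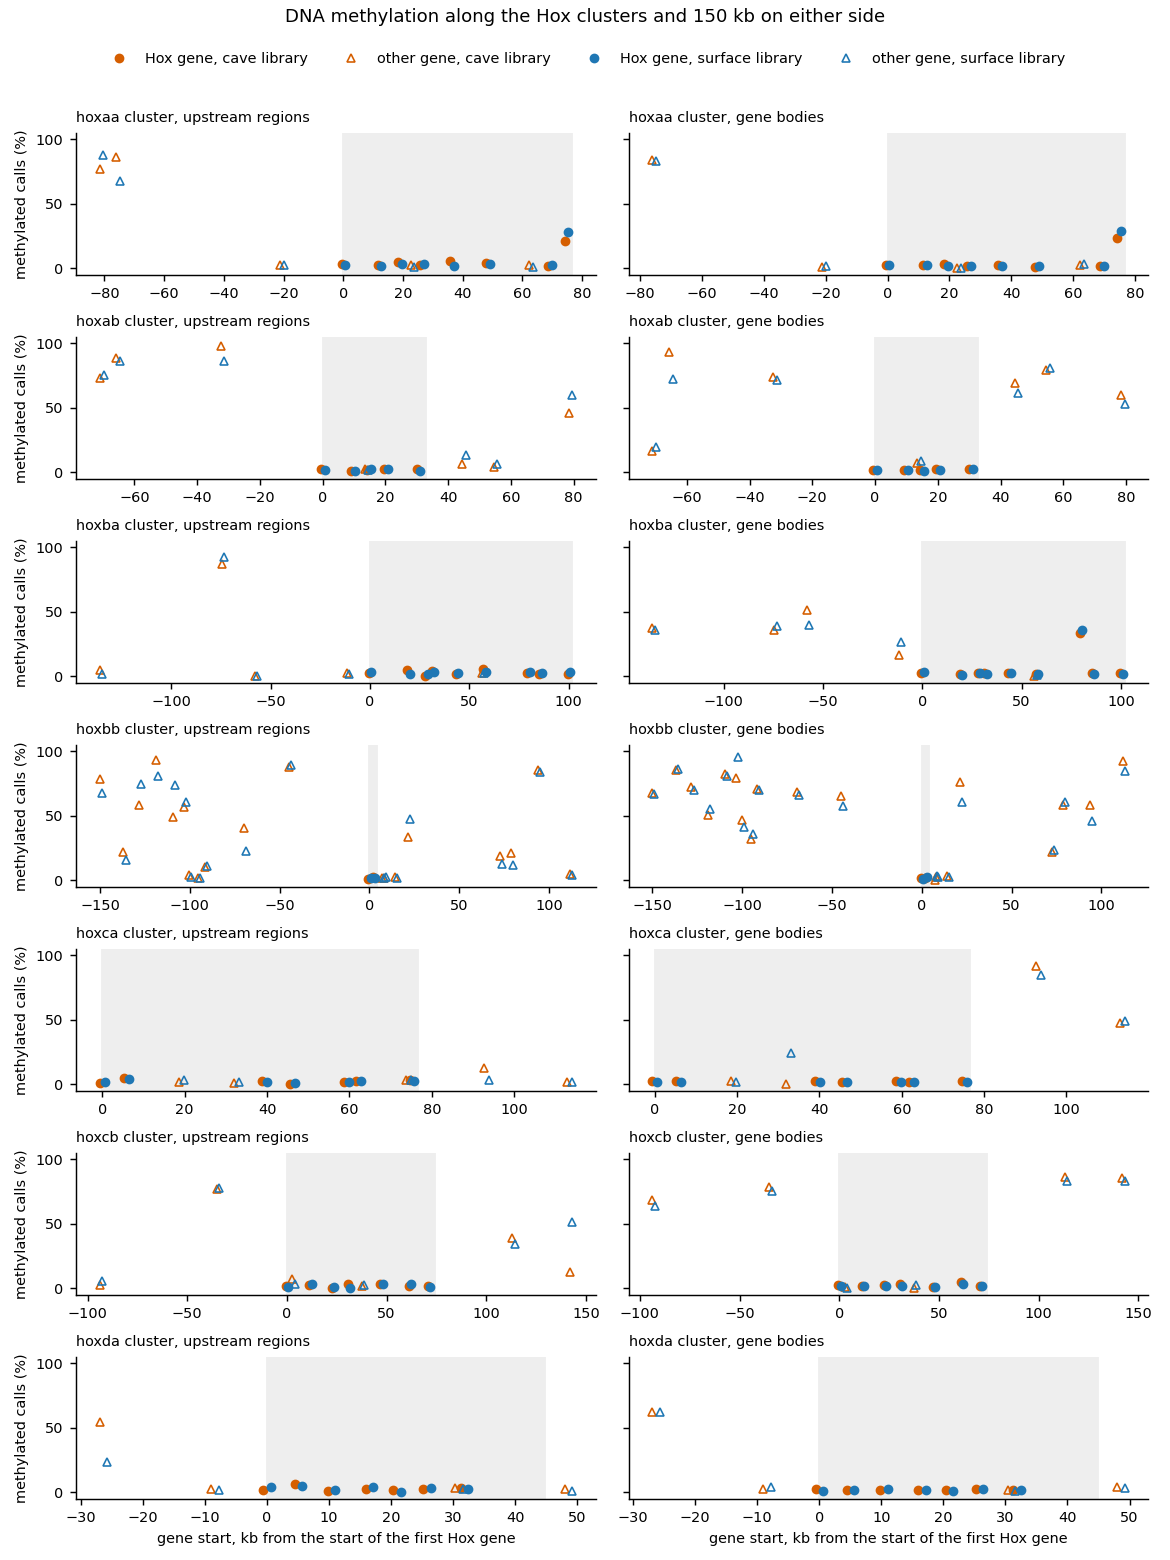
Methylation level (%) of upstream regions (left column) and gene bodies (right column) against the position of each gene's start in kb from the first Hox gene, 1 row per cluster. Filled circles are Hox genes and open triangles other genes, orange for the cave and blue for the surface WGBS library, and the grey band is the Hox span. Hox genes lie near 0 in all 7 clusters except hoxa1a at the end of hoxaa and the body of hoxb3a in hoxba, while most triangles of the right column outside the bands lie higher.

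A pair of genes of low paralog groups departed from this low level. The first was hoxa1a (ENSAMXG00000005258; scaffold KB872185.1, 159617 to 161499), the last gene of the hoxaa cluster and in vertebrates a determinant of the anterior hindbrain. Its upstream region was at 21.0% in cave (3686 calls, exact 95% binomial interval 19.7 to 22.3%) and 28.3% in surface (4115 calls, 26.96 to 29.74%). Its body was at 23.7% in cave (6416 calls, 22.7 to 24.8%) and 28.9% in surface (5206 calls, 27.7 to 30.2%). Intervals cover counting error only, since PCR copies and neighbouring cytosines of one molecule are not independent. Its neighbour HOXA2 was at 1.87% upstream in cave and 2.09% in surface, so the change from low to intermediate methylation fell between these genes. The second was hoxb3a (ENSAMXG00000016014; scaffold KB871704.1, 671698 to 676205), a gene of the hindbrain and the posterior arches that stands inside the hoxba cluster between hoxb4a and hoxb2a. Only its body was methylated, at 33.3% in cave (6986 calls, 32.2 to 34.4%) and 35.5% in surface (7763 calls, 34.4 to 36.6%), while its upstream region was at 2.31% in cave and 2.84% in surface. The bodies on either side of it were at 1.74% in cave and 1.76% in surface for hoxb4a, and at 2.05% in cave and 1.46% in surface for hoxb2a.

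The remaining Hox levels spanned a few points. After hoxa1a the highest upstream levels, by the mean of both libraries, were those of hoxd12a (6.36% in cave, 4.66% in surface), hoxc12a (4.70% in cave, 3.77% in surface), hoxb4a (5.37% in cave, 2.98% in surface) and HOXA10 (4.77% in cave, 3.18% in surface). The lowest were HOXC8 (0.130% in cave, 0.565% in surface), hoxd9a, hoxb8a (0.258% in cave, 1.32% in surface), hoxc8a (0.469% in cave, 1.12% in surface) and hoxa9b (1.11% in cave, 0.612% in surface). For hoxd9a, 1.31% of 306 upstream calls were methylated in cave and 0 of 193 in surface, a count that allows up to 1.55%. Of the gene bodies, hoxc12b (4.41% in cave, 3.14% in surface), hoxb13a (2.52% in cave, 3.23% in surface) and hoxa11a (2.52% in cave, 2.56% in surface) followed hoxb3a and hoxa1a. The lowest bodies were hoxc11b (1.13% in cave, 1.25% in surface), hoxa10b (1.40% in cave, 1.00% in surface), hoxd9a (1.56% in cave, 0.867% in surface), HOXA4 (0.916% in cave, 1.53% in surface) and hoxb9a (1.49% in cave, 1.14% in surface). Genes of a, b, c and d clusters were among the 5 highest and 5 lowest upstream levels and the 5 lowest body levels. The 5 highest body levels included no hoxd gene. Across the 43 genes without hoxa1a and hoxb3a, cave and surface levels had a Spearman correlation of 0.476 upstream and 0.395 in bodies, a description across neighbouring genes of 1 library each.

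No Hox region differed between the cave and the surface library by 10 percentage points. With Fisher's exact test and an adjusted p below 0.05, 0 Hox upstream regions were called more methylated in cave at that size, where 12.1% of all upstream regions were. None was called less methylated, where 8.67% were. For gene bodies the Hox counts were also 0 in each direction, beside 3.15% of all bodies called more methylated and 1.99% called less methylated in cave. The 44 Hox upstream regions and 43 Hox bodies below 10% in both libraries cannot differ by 10 points in either direction. For them the counts of 0 were fixed by their level, and only hoxa1a and the body of hoxb3a could have been called. At any size, 20 of the 45 Hox upstream regions had an unadjusted p under 0.05, where 62.3% of all upstream regions did, and 23 of the 45 Hox bodies, where 72.0% of all bodies did. At an adjusted p below 0.05 the cave level was higher at 9 Hox upstream regions, beside 35.0% of all, and lower at 7, beside 23.7% of all. It was higher at 18 Hox bodies, beside 47.9% of all, and lower at 4, beside 22.1% of all. With 1 library per morph these tests compare the libraries and have no replicate check.

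The largest differences were those of hoxa1a, 7.34 points lower in cave upstream (Fisher's exact test, adjusted p = 6.34e-13) and 5.22 points lower in its body (adjusted p = 7.27e-10). Without hoxa1a the largest were 3.53 points upstream, at hoxa5a (5.26% in cave, 1.73% in surface), and 2.19 points in bodies, at hoxb3a. Every call total of the cave library was an even number, against 50.5% of upstream totals of the surface library, so each cave call may stand in the table with a duplicate. With cave calls halved, hoxa1a kept its differences (adjusted p = 1.58e-08 upstream and 5.13e-07 in the body), and 10 Hox upstream regions and 20 bodies had an adjusted p below 0.05. The intervals given for cave are then too narrow.

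RNA of the Hox genes was scarce in these eyes. Summed over all 45 genes there were 2849 and 774 counts in the cave-labelled libraries, against 305 and 2420 in the surface-labelled ones, which is 21.5 and 6.57 CPM for cave and 2.08 and 15.7 CPM for surface. The sums overlapped between the groups and differed by several times within each. At least 6 counts were found for 37 and 14 Hox genes in the cave-labelled libraries and for 12 and 22 in the surface-labelled ones. The limit of 6 counts stands for 3 read pairs if both mates were counted, and 81.0% of the 116 Hox counts above 0 were even. In all, 41 Hox genes averaged under 1 CPM. Neither hoxc12a nor hoxd13a had a count in any library, which at 6 counts allows 0.0388 to 0.0510 CPM. In whole eyes fewer cells with Hox RNA and less RNA per cell cannot be told apart, and RNA of tissue dissected along with the eye enters the same sums.

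**Figure D3:**
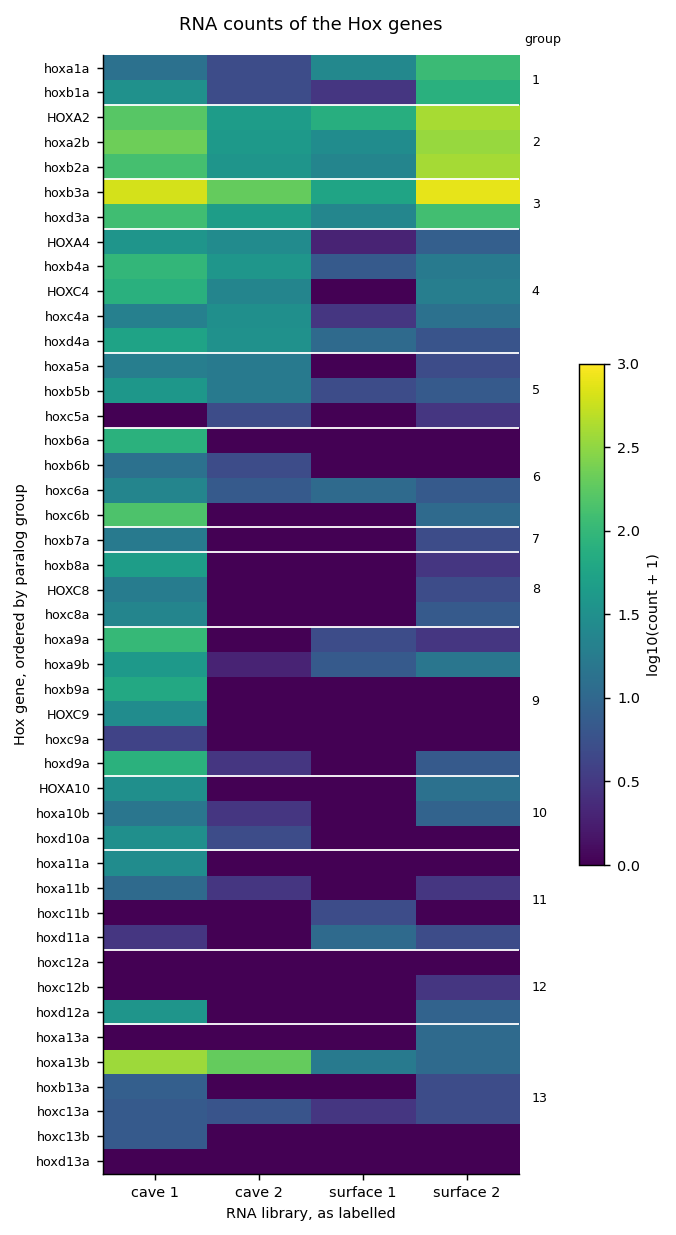
RNA counts of the 45 Hox genes, 1 row per gene in order of paralog group (numbers at the right), with the cave-labelled libraries on the left and the surface-labelled ones on the right; colour is log10(count + 1). Groups 1 to 3 are brightest in the second surface-labelled library and the first cave-labelled one, groups 4 to 13 in the first cave-labelled library, and hoxa13b is bright in both cave-labelled libraries.

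Counts of low-numbered genes made up the larger part of the Hox sum in both surface-labelled libraries. The 7 genes of paralog groups 1 to 3 summed to 1303 and 367 counts in the cave-labelled libraries, against 230 and 2232 in the surface-labelled ones, and 6 of the 7 were highest in CPM in the second surface-labelled library, with hoxd3a the exception. Of all 5449 genes with a mean under 1 CPM and at least 6 counts in some library, 31.7% were highest there. That class leaves out hoxb3a, HOXA2 and hoxa2b, with means of 2.96, 1.19 and 1.09 CPM. The hoxb3a gene had 633 and 193 counts in the cave-labelled libraries, against 56 and 783 in the surface-labelled ones. Each group thus held a high and a low library. The genes of paralog group 2, which pattern the second pharyngeal arch and the hindbrain, were likewise highest in the second surface-labelled library and next in the first cave-labelled one. HOXA2 had 164 and 44 counts in the cave-labelled libraries, against 75 and 406 in the surface-labelled ones. Its copy hoxa2b had 215 and 40 in the cave-labelled libraries, against 28 and 344 in the surface-labelled ones, and hoxb2a had 128 and 36 in cave, against 22 and 388 in surface. For hoxd3a the counts were 119 and 46 in the cave-labelled libraries and 23 and 121 in the surface-labelled ones. The methylated gene hoxa1a had 12 and 4 counts in the cave-labelled libraries, against 24 and 110 in the surface-labelled ones. Its groups did not overlap, but the difference did not pass the test (edgeR log2 fold change −2.67, SE 1.09, adjusted p = 0.280). Without the first cave-labelled library it did (−3.50, adjusted p = 0.0339), but that fit has 1 library on the cave side and called 18.1% of all genes lower.

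Genes of groups 4 to 13 were read mainly in the first cave-labelled library. The 16 genes of groups 4 to 8 summed to 701 and 194 counts in the cave-labelled libraries, against 33 and 102 in the surface-labelled ones, and 13 of the 15 with at least 6 counts somewhere were highest in CPM in the first cave-labelled library. The 22 genes of groups 9 to 13 summed to 845 and 213 counts in the cave-labelled libraries, against 42 and 86 in the surface-labelled ones, and 15 of 17 were highest in that same library. Of the 5449 low genes 36.6% were highest there, a class that leaves out hoxa13b with its mean of 1.14 CPM. The trunk gene hoxc6b had 143 and 0 counts in the cave-labelled libraries, against 0 and 10 in the surface-labelled ones. In hoxb4a, expressed from the posterior hindbrain backwards in zebrafish, the counts were 96 and 37 in the cave-labelled libraries and 6 and 16 in the surface-labelled ones, with no overlap (log2 fold change 2.92, SE 0.92, edgeR adjusted p = 0.183). HOXC4 had 80 and 22 counts in the cave-labelled libraries, against 0 and 18 in the surface-labelled ones.

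**Figure D4:**
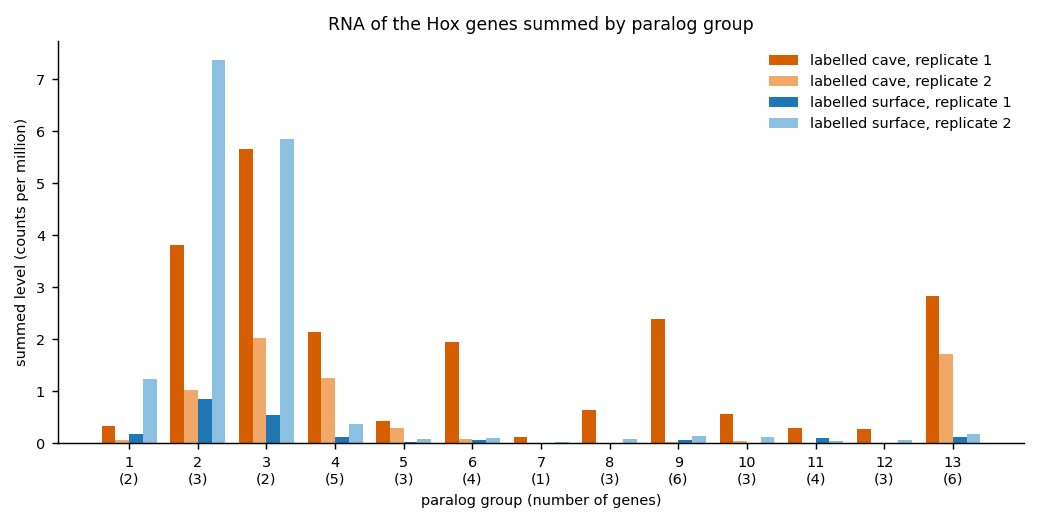
Summed RNA level (CPM) of the Hox genes of each paralog group in the 4 libraries, with bars for the cave-labelled libraries left of the surface-labelled ones and the number of genes in brackets. Levels are not corrected for gene length, so bars compare libraries within a group: group 2 is highest in the second surface-labelled library at 7.37 CPM, and group 13 in the cave-labelled libraries at 2.84 and 1.72 CPM.

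Of the 45 Hox genes, 17 passed the filter on low counts and were tested. The filter keeps a low gene more readily when 1 group is high, so this subset is not a sample of the family. Of these, 1 rose in the cave-labelled libraries at an edgeR adjusted p below 0.05, where 2.77% of all 22850 genes tested did. In the other direction 0 fell by edgeR, where 0.407% of all genes did, and 0 by DESeq2, which called 756 of 24584 genes lower. At an unadjusted p under 0.05 edgeR placed 5 Hox genes (HOXA4, hoxa13b, hoxb4a, hoxb5b and hoxd4a), all higher in the cave-labelled libraries, where 11.9% of all genes tested were higher at that p. Without the filter, edgeR placed 6 of 43 Hox genes at that p in either direction, beside 4239 of 24584 genes. DESeq2 placed 8 of 43 Hox genes there, beside 4558 of 24584 genes. The 17 Hox genes of the main fit had a median log2 fold change of 1.63, beside 0.02 over all genes tested. The filter bears on that median as well.

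The gene that rose was hoxa13b (ENSAMXG00000000621; scaffold KB871754.1, 451885 to 454210), a paralog group 13 gene whose mammalian counterpart patterns the distal limb and the hindgut. It had 358 and 197 counts in the cave-labelled libraries, against 16 and 10 in the surface-labelled ones. Mean levels were 2.19 ± 0.724 CPM in the cave-labelled libraries and 0.0868 ± 0.0312 CPM in the surface-labelled ones (SD, n = 2 each). The groups lay far apart, and the log2 fold change was 4.70 (SE 0.71, edgeR adjusted p = 0.0347). DESeq2 also called hoxa13b (4.68, adjusted p = 2.75e-09). The edgeR call was kept with RLE scaling, halved counts or no filter (adjusted p = 0.0301, 0.0325 and 0.0246). Fits without 1 surface-labelled library leave 1 in that group and cannot decide a call. The log2 fold change there was 5.12 without the first and 4.31 without the second. With the replicate number as a block it was 4.72 with adjusted p = 0.0654. In the authors' deposited table hoxa13b is the 1 Hox gene with an adjusted p below 0.05 of 26 that have one (log2 fold change −3.77, adjusted p = 1.25e-09), with a sign opposite to that of cave over surface as labelled here. Its paralog hoxa13a had 0 and 0 counts in the cave-labelled libraries, against 0 and 10 in the surface-labelled ones. Without hoxa13b, groups 9 to 13 summed to 487 and 16 counts in the cave-labelled libraries, against 26 and 76 in the surface-labelled ones. The methylation of hoxa13b was low in both WGBS libraries, at 2.62% in cave and 0.657% in surface upstream and at 2.402% in cave and 2.23% in surface in the body.

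The set of Hox genes tested depended on the library left out. It held 33 genes without the first surface-labelled library, 33 without the second and 16 without the first cave-labelled one. Without the second cave-labelled library, the filter on low counts kept genes that were high in only 1 library, and 32 Hox genes were tested in place of 17. Some entered through the library in which they were then higher, so a share of calls among them cannot be set against all genes. The genes hoxb6a and hoxb9a, left out of the main fit, had 82 and 64 counts in the first cave-labelled library and 0 in every other. Also left out, hoxa9a had 100 and 0 counts in the cave-labelled libraries, against 4 and 2 in the surface-labelled ones. For hoxd9a the counts were 82 and 2 in the cave-labelled libraries and 0 and 6 in the surface-labelled ones. Fold changes of such genes in this fit follow from how they entered it and are not given. The lone cave-labelled library was assumed to vary like the others. Markers of tissues around the eye moved between the libraries too. Skeletal muscle markers (12 of 16 found) summed to 700 and 80.8 CPM in the cave-labelled libraries, against 238 and 258 CPM in the surface-labelled ones, and 9 of the 12 were highest in the first cave-labelled library. The myosin light chain gene mylpfa had 34759 and 2284 counts in the cave-labelled libraries, against 9378 and 12488 in the surface-labelled ones. Pharyngeal arch markers (11 of 14 found) summed to 1041 and 203 CPM in the cave-labelled libraries, against 827 and 903 CPM in the surface-labelled ones. The collagen gene col2a1a had 103935 and 19984 counts in the cave-labelled libraries, against 88744 and 95172 in the surface-labelled ones. Without it the arch markers summed to 258 and 33.3 CPM in the cave-labelled libraries, against 223 and 287 CPM in the surface-labelled ones, and of the 11 markers 5 were highest in the first cave-labelled library and 5 in the second surface-labelled one. The first cave-labelled library, highest for groups 4 to 13, thus had the highest muscle sum, and the highest arch sum only with col2a1a counted. Hindbrain markers (9 of 14 found) summed to 232 and 542 CPM in the cave-labelled libraries and 239 and 287 CPM in the surface-labelled ones, while their median log2 fold change was −1.02. The gene isl1, also expressed in retinal neurons, had 25889 and 59268 counts in the cave-labelled libraries, against 24509 and 23943 in the surface-labelled ones. Without isl1 they summed to 37.2 and 38.6 CPM in the cave-labelled libraries, against 71.7 and 132 CPM in the surface-labelled ones, and 6 of the 9 were highest in the second surface-labelled library. So were most Hox genes of groups 1 to 3, but this was not particular to them. The same held for 6 of 8 spinal cord and trunk markers with at least 6 counts, 8 of 10 Hox cofactors and 11 of 15 trithorax and H3K27 demethylase genes. It held for 1 of 12 muscle markers and 0 of 14 eye markers. Spinal cord and trunk markers (10 of 11 found) summed to 18.6 and 33.0 CPM in the cave-labelled libraries, against 38.0 and 44.6 CPM in the surface-labelled ones, with olig2 at 1797 and 3382 counts in cave and 4193 and 4000 in surface. The motor neuron gene mnx1 was at 0 in all 4. Pectoral fin and kidney markers (6 of 9 found) summed to 35.1 and 37.4 CPM for cave and 38.6 and 50.4 CPM for surface, and vessel and blood markers (8 of 12 found) to 101 and 97.2 CPM for cave and 140 and 147 CPM for surface. The leading pectoral fin and kidney gene was pax2a, with 1432 and 974 counts for cave and 2170 and 3842 for surface. It stands in the hindbrain list too, and whether the eye itself expressed it was not tested. Without pax2a the fin and kidney markers summed to 24.3 and 29.1 CPM for cave and 23.9 and 25.6 CPM for surface. The leading vessel and blood gene was alas2, with 1712 and 1780 counts for cave and 7153 and 4016 for surface. By edgeR 0 of the 52 genes tested from these non-eye lists were called, with 13 at an unadjusted p under 0.05, where 18.3% of all genes were. DESeq2 called 10 genes of these lists, and of all 24584 genes it called 1593 higher and 756 lower. The part of these tissues in the Hox counts was not tested.

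Genes that act with or upstream of Hox genes are given against the shares over all genes tested by edgeR, 2.77% higher, 0.407% lower and 18.3% at an unadjusted p under 0.05. Their DESeq2 counts stand beside 1593 genes called higher and 756 lower by DESeq2 among 24584. Of the Pbx, Meis and Pknox cofactors, which bind DNA together with Hox proteins, 0 of 10 tested were called, with 2 at an unadjusted p under 0.05, 1 called by DESeq2 and a median log2 fold change of −0.22. The cofactor meis2a had 14271 and 12298 counts in the cave-labelled libraries, against 15904 and 25413 in the surface-labelled ones. Of the Polycomb genes, repressors that keep Hox genes off, 0 of 33 were called (3 at an unadjusted p under 0.05, 1 by DESeq2, median −0.25), and rbb4l had 34538 and 33563 counts in the cave-labelled libraries, against 46716 and 41192 in the surface-labelled ones. Of the trithorax and H3K27 demethylase genes, which oppose Polycomb, 0 of 15 were called (4 at an unadjusted p under 0.05, 0 by DESeq2, median −0.11). The demethylase gene kdm6ba had 14510 and 17522 counts in the cave-labelled libraries, against 29412 and 39276 in the surface-labelled ones.

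Of the retinoic acid and Cdx genes, which set where Hox genes are expressed, 1 of 16 fell and 0 rose (3 at an unadjusted p under 0.05, 2 called by DESeq2, median −0.06). It was cyp26c1, which encodes a retinoic acid degrading enzyme, with 1574 and 1551 counts in the cave-labelled libraries and 6184 and 6503 in the surface-labelled ones. The groups did not overlap (log2 fold change −1.67, SE 0.23, edgeR adjusted p = 0.0275), but the call was lost with the replicate block (adjusted p = 0.0696). In fits that leave 1 surface-labelled library and cannot decide a call, the log2 fold change was −1.68 without the first and −1.75 without the second. The Cdx gene cdx4, an activator of trunk Hox genes, was at 0 in all 4 libraries. Among ParaHox and related homeobox genes 0 of 10 tested were called (2 at an unadjusted p under 0.05, 2 by DESeq2, median 0.20), with gbx2 at 1255 and 2947 counts in the cave-labelled libraries and 1473 and 1942 in the surface-labelled ones. A further list was chosen by gene name as Hox neighbours, and not all of its genes lie within 150 kb of a cluster here. Of these 0 of 29 tested were called (6 at an unadjusted p under 0.05, 2 by DESeq2, median −0.07), with hnrnpa1a at 63824 and 78360 counts in the cave-labelled libraries and 80390 and 94864 in the surface-labelled ones.

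In their methylation the related homeobox genes were split, some as low as Hox genes and others far above. Of 15, 9 upstream regions and 8 bodies were below 10% in both libraries. The body of gsx2 was at 1.31% in cave and 0.80% in surface, and that of gbx2 at 2.74% in cave and 2.09% in surface. The body of meox1 was at 86.4% in cave and 87.8% in surface, and that of meox2b at 89.1% in cave and 89.4% in surface. The body medians, 8.62% in cave and 8.52% in surface, were the levels of mnx1. Of the 10 cofactors, 4 upstream regions and 0 bodies were that low, and of the Polycomb genes 12 of 33 upstream regions and 1 of 34 bodies. Of the 31 genes listed by name as Hox neighbours, not all within 150 kb of a cluster here, 3 upstream regions were called more methylated in cave. The number called less methylated was 2, beside the 12.1% and 8.67% of all regions. The upstream region of lnpa, 16.5 kb from hoxd13a, was at 54.5% in cave and 23.7% in surface, and that of skap1 beside hoxbb at 33.3% in cave and 47.5% in surface. For rargb, a retinoic acid receptor gene near the hoxcb cluster, it was at 12.7% in cave and 51.1% in surface (Fisher's exact test, adjusted p = 2.79e-51).

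Several names and borders bear on these values. Symbols were taken from the methylation table, because the count table had dropped the digit 0 from every symbol that holds one: hoxa10b, HOXA10 and hoxd10a stood there without it. The span of hoxd3a contains hoxd4a and that of hoxc13b contains hoxc12a, so these pairs share methylation calls. Reads from their shared spans, and reads from the conserved homeobox of any paralog, could have been split or dropped in counting, so low counts of single members are uncertain. The gene named hoxc13b stands beside hoxc12a and the gene named hoxc13a beside hoxc12b, and in the RefSeq gene table of assembly AstMex3_surface hoxc13a follows hoxc12a. Of the 45 symbols, 38 were found in that table, which lists 46 Hox genes. It places hoxa3a between hoxa1a and hoxa4a, and an unnamed low gene lies here between HOXA2 and HOXA4. The longer unnamed low genes inside or beside the clusters may thus be Hox genes without a symbol, which was not tested.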

How the data were processed

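Reads were processed with Trimmomatic, Bismark, STAR, Subread featureCounts and DESeq2, per the submitters' processing notes. Not given in the sources used here are their versions, the genome build, the cytosine context and the width of the upstream region. The authors deposited raw counts per gene for 4 RNA libraries, counts of calls (methylated, unmethylated) for each gene body and upstream region for 2 WGBS libraries, and a comparison table with log2 fold changes and an adjusted p-value per gene. The numbers computed here are CPM, methylation percent, edgeR 4.0.16 quasi-likelihood tests (TMM, filterByExpr, R 4.3.3) and two-sided Fisher's exact tests (Python 3.11.15, scipy 1.17.1) on regions with at least 20 calls in each library. All p-values were adjusted by Benjamini-Hochberg over every gene or region tested, and a region was called at 0.05 and 10 points. DESeq2 1.42.0, RLE scaling, no filter, halved counts, a replicate block and each library left out were alternatives for RNA; 100 calls, halved cave calls and 5 or 20 points for methylation. Tests were checked on simulated data.

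The members and lists were chosen with earlier results of these data known. Values are given for the 10 Hox genes with the highest mean CPM, those called, and those with the 5 highest and 5 lowest methylation levels per region type. Of other lists up to 3 called genes are named, otherwise the one with the highest mean CPM. The labels do not say whether the replicate numbers pair the samples, and the main fit took them as unpaired.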

Additional observations from a re-analysis of the deposited data

How the results depend on the processing

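The medians of Hox methylation and the counts of 0 called Hox regions did not change at 100 calls, with halved cave calls or at 20 points; at 5 points 1 Hox upstream region and 1 Hox body were called less methylated in cave, both hoxa1a. Among all genes edgeR called 633 higher and 93 lower, DESeq2 1593 and 756. With the replicate block the counts were 318 and 35, and 0 Hox genes were higher. Deviations of same-numbered libraries were correlated at −0.0719, a single value that cannot show whether the numbers pair the libraries. Fits with 1 library left out leave 1 library in a group, so their counts cannot decide a call. Without cave replicate 2 the filter kept some Hox genes read mainly in cave replicate 1. The Hox count of that fit thus follows in part from how these genes entered it and cannot be set against all genes. With 1 library left out, Hox genes higher numbered 0 (without either surface library) to 12 (without cave replicate 2), and Hox genes lower 0 to 1 (hoxa1a, without cave replicate 1). All genes higher ranged from 0 to 2989 and lower from 0 to 4203, with the 0s without either surface library and the highest counts without cave replicate 1.

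Signs under the alternatives were followed only for the tested Hox genes among those of highest mean CPM. Of the genes followed, 5 that were not called turned sign. Whether the other tested Hox genes, such as hoxb1a, hoxa9b and HOXA10, kept theirs is not given here. With 1 library left out, log2 fold changes ran from −1.91 to 0.64 for HOXA2, −1.66 to 2.34 for hoxa2b, −1.95 to 2.07 for hoxb2a, −0.60 to 3.06 for hoxb3a and −0.22 to 2.03 for hoxd3a. All 5 had their highest value without surface replicate 2. Those of opposite sign were these highest values for HOXA2, hoxa2b and hoxb2a, 0.45 for hoxa2b without cave replicate 2, −0.56 for hoxb3a and −0.11 for hoxd3a without cave replicate 1, and both lowest values of these last genes, without surface replicate 1. With the replicate block hoxa2b was at 0.25. The cause was not tested. Depth limits the rest: the filter on low counts left out 28 Hox genes (43 were tested without it), and 1 WGBS library per morph gives no replicate error.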
